A study of Mus musculus with 16 samples.

Results

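The 26S proteasome is the protease that degrades proteins tagged with ubiquitin, and its subunits are encoded by the Psm genes. Transcripts were taken as proteasome subunit transcripts where the mouse symbol began with Psm, a letter from a to g and a number, which 50 genes did. For each of them the interval with the highest mean CPM (reads scaled to library size, the authors' mean over all libraries) was used, and genes with a mean CPM below 1 were left out. This left 47 of 21177 genes in the table: 17 of the 20S core (Psma and Psmb), 21 of the 19S cap (Psmc and Psmd) and 9 regulators (Psme, Psmf and Psmg). The samples were leukemia cells from bone marrow of C57BL/6 mice, either WT or YBX1-/-, as the labels give them; which oncogene drove the leukemia, and how YBX1 was deleted, were not given in the sources used here. The protein YBX1 binds RNA, and the title of the study asks how it bears on mRNA stability that depends on m6A, a methyl mark on adenosine in RNA. All cells of both genotypes were given 50 µM 4-thiouridine (4sU) for 24 h and then chased with 10 mM uridine, and polyA RNA was collected after 0, 0.5, 1, 3, 6, 12, 18 and 24 h. SLAM-seq reads the 4sU that RNA has taken up as T-to-C changes, and the T-to-C rate of an interval is given here in percent. There was 1 library for each genotype and time, 16 in all, so no time point has a replicate and p-values throughout measure how far time points scatter and say nothing of the spread between animals or cultures.

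The 20S core is a barrel of stacked rings: outer rings of alpha subunits, which gate the entrance, and inner rings of beta subunits, which hold the active sites. Psmb5, Psmb6 and Psmb7 encode the constitutive catalytic subunits, and Psmb8, Psmb9 and Psmb10 encode their counterparts in the immunoproteasome, a form found in blood cells and induced by interferon that makes peptides for MHC class I. The 19S cap binds ubiquitin chains, removes them and threads the substrate into the barrel with a ring of ATPases (Psmc). Regulators include the PA28 activators (Psme1, Psme2, Psme3), the PA200 activator (Psme4), the inhibitor PI31 (Psmf1) and the chaperones that assemble the core (Psmg). During the chase the T-to-C rate falls through decay of labelled RNA and through dilution by new RNA, which these data cannot tell apart.

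Some members need care. Psmc3ip matched the symbol rule but encodes a factor of meiotic recombination, not a proteasome protein, and its interval overlaps an exon of Mlx on the opposite strand. Psma8 encodes the alpha subunit of testis, and Psme2b is a near copy of Psme2, so that reads of this pair may have been divided by the authors' counting. The 3 members under the CPM minimum were Psmb11 (mean CPM 0.00288), a subunit of thymus, Psme2 (0.0258) and Psmb5 (0.317), the constitutive subunit with chymotrypsin-like activity. Just inside the minimum lay Psma8 (2.23), Psmg1 (2.42) and Psma5 (2.86). Of the 47 members, 44 had a rate above 0 in at least 12 of the 16 libraries and were tested: 16 of the core, 20 of the cap and 8 regulators. Psma8, Psmc5 and Psmg1 did not pass. Psmb7 and Psme1 overlap exons of Nek6 and Emc9 on the opposite strand, and counting by strand was not stated in the sources used here.

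The measured intervals lay in the 3' UTR of their own gene (GRCm38 coordinates), 19 of the kept ones with coding bases as well. They were short: the median length was 296 bases, against 1165 bases over the 9628 genes with a mean CPM of at least 1. Per length, members were abundant, with a median of 50.5 CPM per kb against 7.05 over those genes; the medians were 54.4 for the core, 63.0 for the cap and 25.7 for regulators. The highest value was 704 CPM per kb for Psmb6 and the lowest 2.33 for Psma8. Most m6A lies in the sequence GGACU or its variants, read here as GGACT in DNA letters. GGACT was found in 17 of the 47 intervals (36.2%) and in 64.7% of intervals of the genes above, but its density was nearly equal, 0.957 against 0.961 per kb. The sites below, with GGACT in capitals and up to 10 bases on each side, are examples from members described further on, chosen after their values were seen. They are shown 5' to 3' on the strand of the gene, from the GENCODE transcripts.
Psmb8: cagagacctgGGACTacttcagtct
Psmd3: attagggtgtGGACTagggcctgga
Psmd13: ccacctgagtGGACTttgtccagtg
Psmd1: ttacagtccaGGACTgggcacactc
Psmg3: caagtctcagGGACTctccctgcgt
Psme3: cagggccaggGGACTttgtgagtct
The Psmb8 site is chr17:34201317-34201341 (+), the Psmd3 site chr11:98695883-98695907 (+) and the Psmd13 site chr7:140898579-140898603 (+). The Psmd1 site is chr1:86128159-86128183 (+), the Psmg3 site chr5:139823768-139823792 (-) and the Psme3 site, the upstream one of 2, chr11:101321882-101321906 (+). Whether any of these sites carries m6A was not measured.

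The cells carried myeloid or progenitor markers: all 13 had a mean CPM of at least 1, from 1.94 for Kit to 7376 for Lyz2, while none of 4 T cell and none of 4 B cell markers did. The sample titles name leukemia cells without a lineage, and these markers do not check that label. Of the other markers, 2 of 5 erythroid (at most 1.34), 2 of 3 megakaryocyte (at most 39.8) and 1 of 5 stromal or endothelial (at most 4.60) did. CPM was deposited as a mean over all libraries, so these levels cannot be set against genotype or time, and depth per library is unknown. The interval of Ybx1 itself held rates above 0 in all 16 libraries, from 3.08% to 72.0% in YBX1-/-; a rate is a share of label and not a level, so this does not check the genotype. The YBX1-/- 0 h library listed 3.64% of the 7411 genes tested at 0, against 0.0945% in WT at 0 h, and Psmb7 and Psmc2 were among them; main values that this library moves are also given without it.

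Proteasome transcripts were labelled like the typical transcript. Those of the 20S core and the regulators kept more of the label through the middle of the chase in both genotypes. The cap did so at 6 h in both genotypes, and at 3 h in YBX1-/- only. The median rates in percent are over 17 core, 21 cap and 9 regulator transcripts, with the untested Psma8, Psmc5 and Psmg1 among them. All genes tested, set beside them, had passed the filter on rates. In WT the median rate of the core, over the 8 chase times in order, was 39.3%, 44.0%, 42.7%, 29.6%, 15.4%, 4.11%, 1.36% and 0.840%. The median of all genes tested was 42.9%, 49.2%, 43.6%, 19.9%, 10.2%, 2.17%, 1.14% and 0.848% at the same times. The core thus started level with the typical transcript and stood above it from 3 to 12 h. In YBX1-/- the core median was 32.0%, 30.7%, 30.9%, 25.6%, 14.3%, 2.86%, 1.43% and 0.838%, and the median of all genes tested was 33.3%, 36.7%, 29.8%, 18.2%, 4.76%, 1.75%, 1.32% and 0.768%. The gap was widest at 6 h in this genotype.

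**Figure D1:**
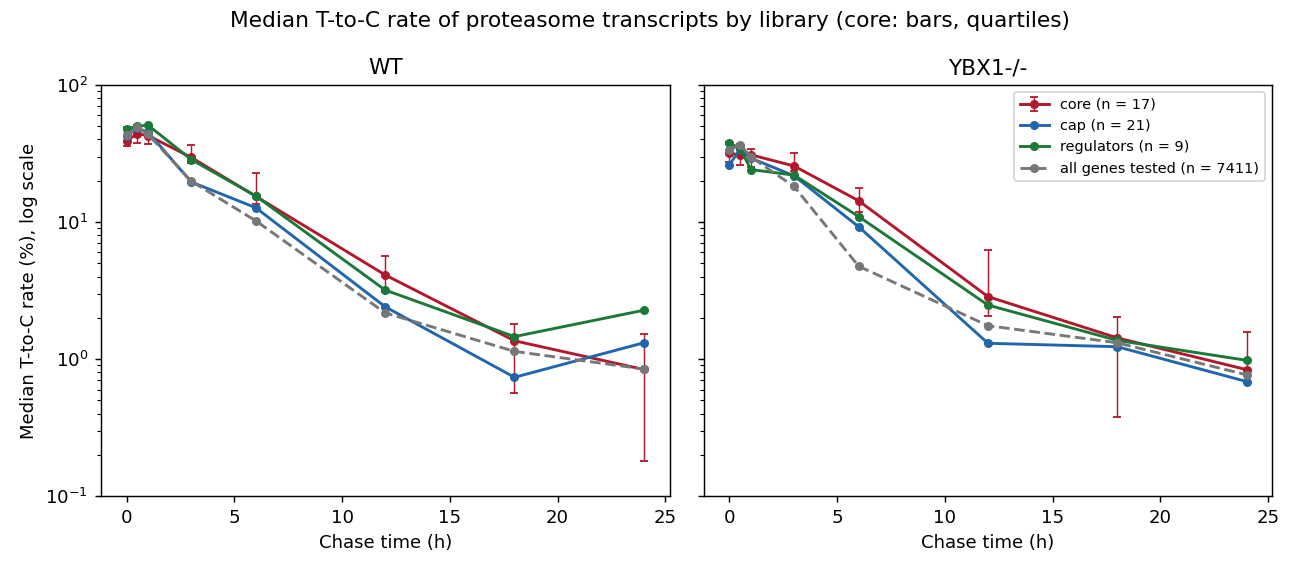
Median T-to-C rate (%, log axis) over chase time (h) in WT (left) and YBX1-/- (right) for core, cap and regulators and for all genes tested (dashed). Bars are the quartiles over the 17 core transcripts, and the core median at 6 h was 15.4% in WT and 14.3% in YBX1-/- against 10.2% and 4.76% for all genes tested.

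The cap was closer to the typical transcript in WT. Its median rates there were 42.4%, 48.4%, 45.2%, 19.6%, 12.7%, 2.41%, 0.737% and 1.32%. In YBX1-/- the cap values were 26.1%, 34.0%, 29.2%, 21.8%, 9.23%, 1.31%, 1.23% and 0.687%. The cap was close to the typical transcript at 3 h in WT, above it at 3 h in YBX1-/-, and above it at 6 h in both genotypes. At 12 h in YBX1-/- the cap stood below it, at 1.31% against 1.75%. The 9 regulators had medians of 47.6%, 50.0%, 50.8%, 28.6%, 15.5%, 3.19%, 1.46% and 2.27% in WT, and of 37.5%, 34.6%, 24.1%, 22%, 11%, 2.48%, 1.37% and 0.980% in YBX1-/-. On the log2(rate + 0.1) scale, with each library centred on the median of all genes tested, the core stood at 0.30 ± 0.39 in WT and 0.36 ± 0.58 in YBX1-/- (mean and SD over 8 times), the cap at 0.09 ± 0.33 and -0.004 ± 0.36, and regulators at 0.47 ± 0.44 and 0.40 ± 0.52.

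**Figure D2:**
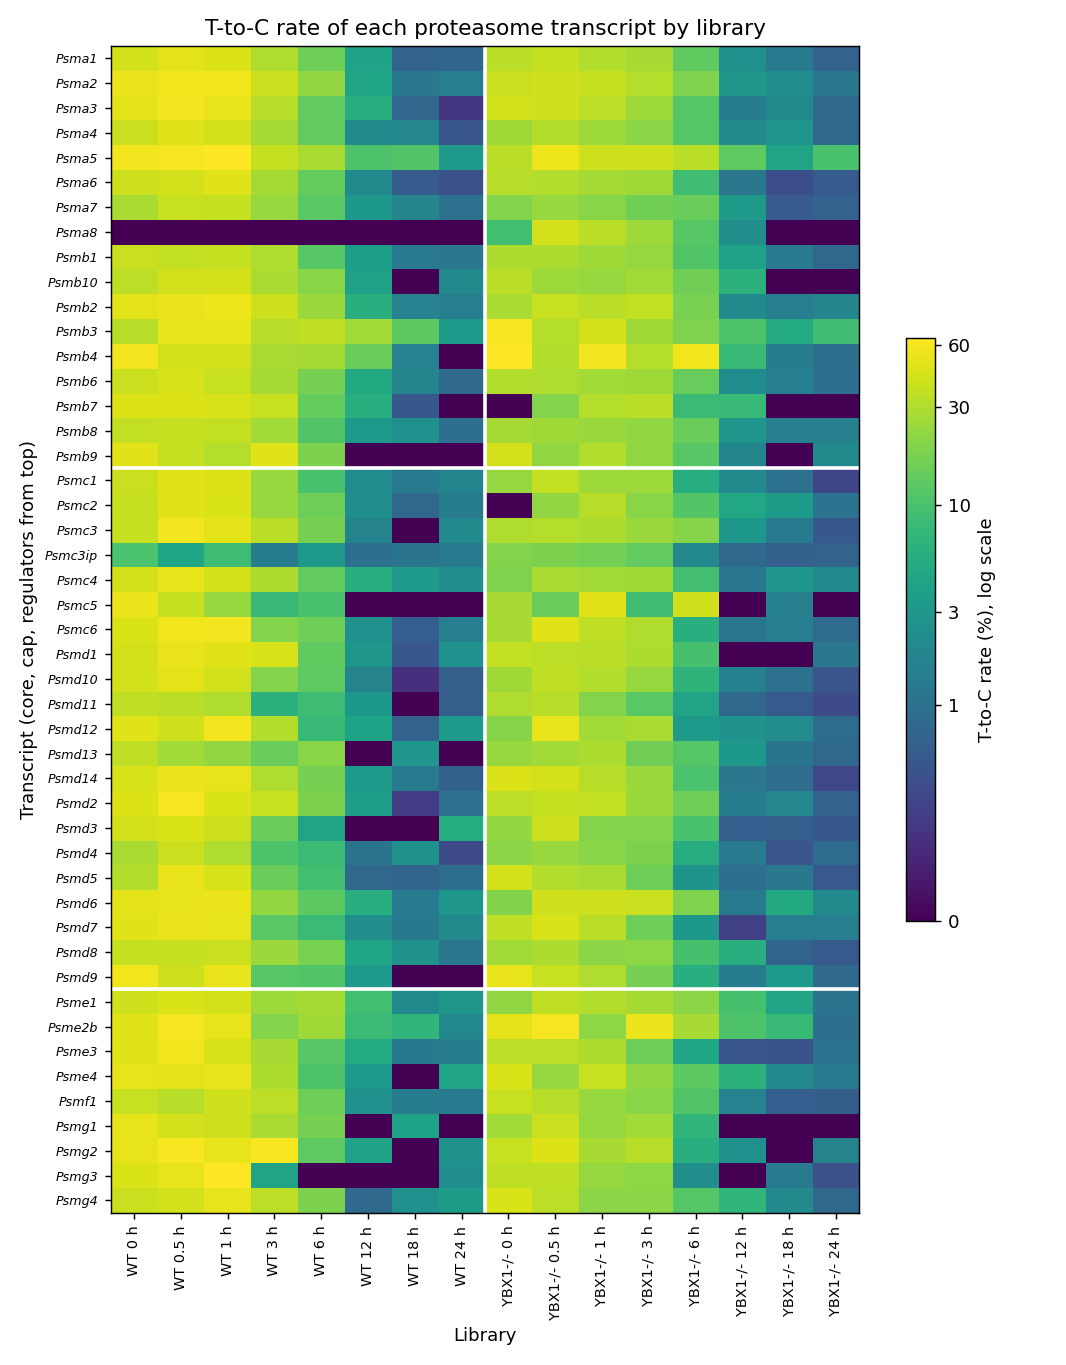
T-to-C rate (colour, log scale in %) of each of the 47 transcripts (rows) in each of the 16 libraries (columns, WT left, YBX1-/- right), with white lines between core, cap and regulators. Rates fell along the chase in both genotypes, Psma8 was listed at 0 in all 8 WT libraries, and Psmb7 and Psmc2 at 0 in the YBX1-/- 0 h library.

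The time at which the rate first crossed 50% of its mean at 0 to 1 h, by straight lines between time points, was longest for the core in WT. The median time was 4.91 h for the core (16 transcripts, quartiles 4.39 and 5.66 h), 4.33 h for regulators (8; 3.32 and 5.31 h), 3.09 h for the cap (20; 2.47 and 4.32 h) and 2.81 h for all genes tested (7218 with a time; 2.37 and 4.21 h). All 16 core transcripts, 10 of 20 cap transcripts and 6 of 8 regulators lay above the median of all genes. In YBX1-/- the medians were 5.85 h, 4.38 h, 4.73 h and 3.38 h in the same order of groups, and 16 of 16 core, 16 of 20 cap and 6 of 7 regulator transcripts lay above the median of all genes. This order is given as a description, with no test.

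Within the core, the 7 alpha subunits were alike in WT, with times to 50% from 3.91 h for Psma3 to 5.04 h for Psma2. Psma1, the most abundant member at a mean CPM of 127, had rates of 42.2%, 49.7%, 46.1%, 29.6%, 15.4%, 4.11%, 0.681% and 0.732% in WT from 0 to 24 h and 33.2%, 36.3%, 30.9%, 28%, 13.3%, 2.47%, 1.36% and 0.676% in YBX1-/-. In YBX1-/- the alpha subunits spread from 4.30 h (Psma3) to 9.57 h (Psma5), and each of the 7 took longer than in WT. Of all genes tested with both times, 59.5% did so. The 4 structural beta subunits were less even in WT, where Psmb2, Psmb3 and Psmb4 were slower than every alpha subunit and Psmb1 was not. Psmb1 reached 50% at 4.91 h in WT and 5.30 h in YBX1-/-, Psmb2 at 5.59 and 6.48 h, Psmb4 at 7.58 and 9.86 h and Psmb3 at 13.8 and 4.44 h. In YBX1-/- only Psmb4 lay outside the range of the alpha subunits. Psmb3 was measured in 59 bases, and its WT rates were 32.1%, 51%, 51.4%, 32.5%, 35.3%, 26.7%, 12.8% and 3.23%. Its YBX1-/- rates were 60%, 31.7%, 42.2%, 26%, 18.3%, 10.7%, 5.13% and 8.82%. Psmb4 did not fall steadily in YBX1-/-, where its rates were 64.3%, 30.4%, 57.6%, 31.9%, 56.7%, 7.94%, 1.43% and 0.990%, so its time to 50% there rests on the high 6 h value.

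The catalytic subunits of both forms of the proteasome, themselves members of the core, were not all alike. Psmb6, the constitutive subunit with caspase-like activity, had rates of 39%, 44%, 37.4%, 26.8%, 16.9%, 4.99%, 1.81% and 0.840% in WT. In YBX1-/- its rates were 30.4%, 30%, 26.7%, 25.5%, 14.3%, 2.22%, 1.53% and 0.975%. It reached 50% at 5.05 h in WT and 5.94 h in YBX1-/-. Psmb7, the constitutive subunit with trypsin-like activity, had rates of 45.5%, 46%, 43.5%, 37.5%, 13.9%, 5.69%, 0.498% and 0% in WT and of 0%, 19.4%, 31.6%, 32.8%, 8.11%, 7.69%, 0% and 0% in YBX1-/-. Apart from 0 h, where it was listed at 0 in YBX1-/-, it was higher in YBX1-/- at 12 h only. Psmb5 was below the CPM minimum and its rates were those of few reads, 50%, 83.3%, 50%, 53.3%, 0%, 20%, 7.14% and 0% in WT and 0%, 25%, 16.7%, 0%, 50%, 0%, 0% and 9.09% in YBX1-/-, which gives no time course.

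Of the immunoproteasome subunits, Psmb8 was the best measured, at a mean CPM of 29.2. Its rates were 36.1%, 37.1%, 36%, 26.3%, 11.2%, 3.15%, 2.51% and 0.984% in WT. In YBX1-/- they were 27.4%, 25.9%, 24.6%, 22.8%, 14.6%, 2.86%, 1.56% and 1.58%, lower than in WT up to 3 h and higher at 6 h. Psmb9 had 48.8%, 36.4%, 31.8%, 47.8%, 18.2%, 0%, 0% and 0% in WT and 42.9%, 21.8%, 30.7%, 22.2%, 12%, 1.85%, 0% and 2.14% in YBX1-/-, with a WT value at 3 h as high as at the start. Psmb10 had 34.1%, 41.5%, 42.5%, 28.7%, 20.3%, 4%, 0% and 2% in WT. In YBX1-/- Psmb10 had 33.3%, 25%, 24.1%, 26.4%, 16%, 6.25%, 0% and 0%. The times to 50% of Psmb8, Psmb9 and Psmb10 were 4.61, 5.87 and 6.24 h in WT and 6.81, 4.86 and 7.39 h in YBX1-/-, so that 2 of the 3 took longer in YBX1-/- and Psmb9 did not. The share that took longer was 59.5% over all genes tested with both times.

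**Figure D3:**
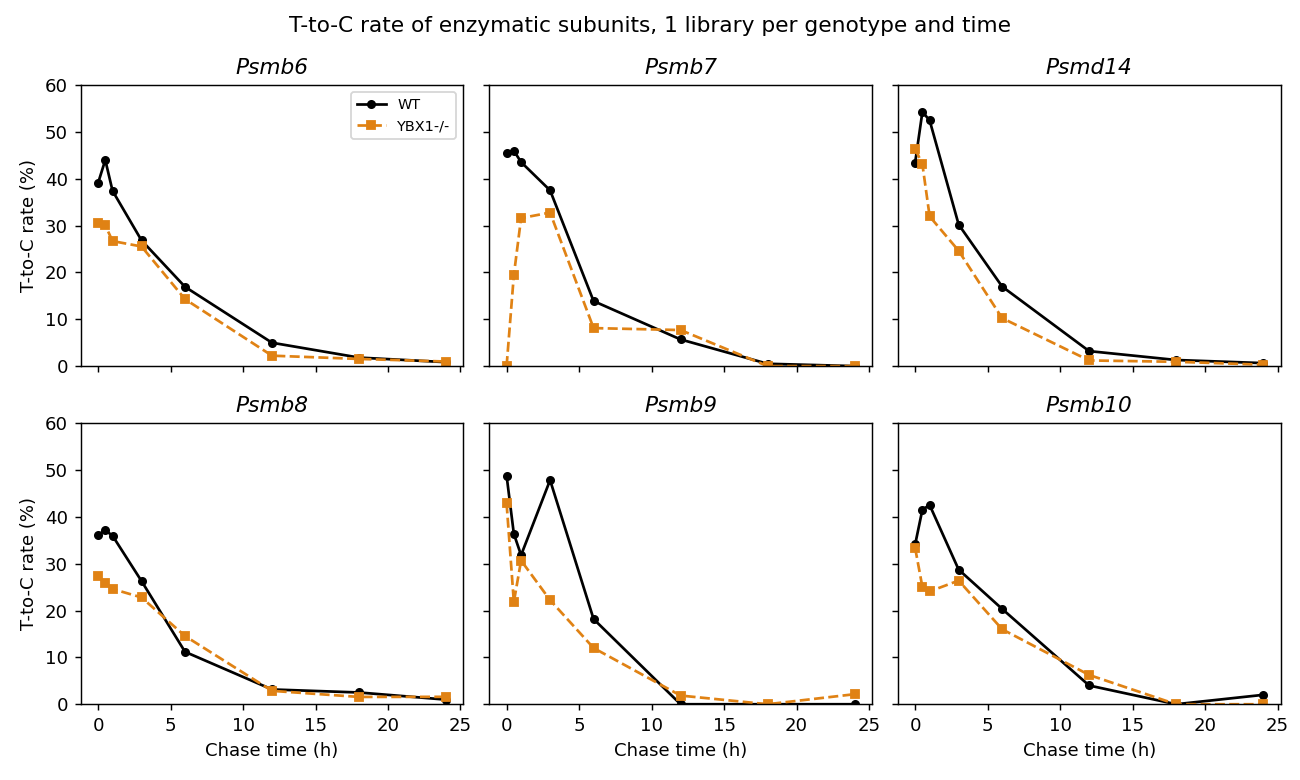
T-to-C rate (%) over chase time (h) of the constitutive catalytic subunits Psmb6 and Psmb7, the deubiquitinase Psmd14 and the immunoproteasome subunits Psmb8, Psmb9 and Psmb10, in WT (black circles) and YBX1-/- (orange squares), 1 library per point. Psmb6 and Psmb8 started lower in YBX1-/- (30.4% and 27.4% against 39.0% and 36.1% at 0 h); at 6 h Psmb8 lay above the WT line (14.6% against 11.2%) and Psmb6 stayed below it (14.3% against 16.9%).

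In the cap, the times to 50% of the tested ATPases were longer in YBX1-/-. The 5 tested (Psmc1, Psmc2, Psmc3, Psmc4 and Psmc6) had a median time to 50% of 3.80 h in WT and 5.47 h in YBX1-/-, and each of the 5 took longer in YBX1-/-, by 1.27 to 4.16 h. The largest of these, for Psmc2, rests on the 0 listed at 0 h: with the start from 0.5 and 1 h alone it was 2.04 h, and the 5 differences ran from 1.16 to 3.56 h. Over all genes tested with both times, 59.5% took longer (62.9% with that other start). At 6 h, Psmc2, Psmc3 and Psmc4 kept more of their starting rate in YBX1-/- than in WT. Psmc1 and Psmc6 kept less (20.1% against 22.8% in WT, and 15.4% against 28.6%). Psmc4 fell through 42.4%, 51.2%, 43.1%, 28.9%, 13.6%, 5.88%, 3.26% and 2.36% in WT and through 18.5%, 28.2%, 26.4%, 25.9%, 9.23%, 1.16%, 2.90% and 1.94% in YBX1-/-, where it changed little from 0.5 to 3 h. Psmc5, the ATPase that was not tested, scattered: 53.1%, 36.5%, 23.6%, 7.82%, 10%, 0%, 0% and 0% in WT and 28%, 14.7%, 48%, 8.70%, 40.1%, 0%, 1.56% and 0% in YBX1-/-. The 11 non-ATPase subunits had medians of 3.83 h and 4.82 h, with 7 longer in YBX1-/- (63.6%, near the 59.5% of all genes). Psmd14, the deubiquitinase that cuts ubiquitin chains off substrates, had 43.4%, 54.3%, 52.4%, 30.2%, 17%, 3.20%, 1.30% and 0.640% in WT. In YBX1-/- Psmd14 had 46.4%, 43%, 31.9%, 24.6%, 10.2%, 1.20%, 0.920% and 0.299%, above WT at 0 h only. Its time to 50% was 4.18 h in WT and 3.92 h in YBX1-/-. The scaffold subunits Psmd1 and Psmd2 were slow in WT, at 4.94 and 4.96 h, and nearly the same in YBX1-/-, at 4.89 and 5.20 h. The tested cap transcripts under 3 h in both genotypes were Psmd11 (2.15 and 2.60 h) and Psmd7 (2.34 and 2.63 h), both subunits of the lid, and the cap chaperones Psmd5 (2.59 and 2.81 h) and Psmd9 (2.37 and 2.51 h).

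Among the regulators, the PA28 alpha subunit Psme1 had the longest times to 50%, with rates of 40.3%, 44.7%, 42.4%, 25.2%, 27%, 8.97%, 2.13% and 2.98% in WT and 22.2%, 34.6%, 30.7%, 27.3%, 20.8%, 9.71%, 4.33% and 1.12% in YBX1-/-. It was listed at 27.0% and 20.8% at 6 h, when the median gene was at 10.2% and 4.76%, and its time to 50% was 7.93 h in WT and 9.36 h in YBX1-/-. The nuclear PA28 subunit Psme3 was among the faster ones, at 3.57 and 2.90 h. The PA200 activator Psme4 reached 50% at 3.59 and 4.32 h, and the inhibitor Psmf1 at 5.51 and 4.52 h. Of the core chaperones, Psmg2 and Psmg4 took 5.08 and 5.24 h in WT against 4.54 and 4.38 h in YBX1-/-. Psmg3 went the other way, from 2.23 to 3.94 h. Psme2b, measured in 45 bases, scattered in YBX1-/-, with 50%, 59.4%, 21.5%, 53.1%, 27.9%, 10.7%, 7.69% and 0.980%, against 47.7%, 60%, 51.2%, 19.7%, 25.6%, 8.06%, 6.94% and 1.96% in WT.

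**Figure D4:**
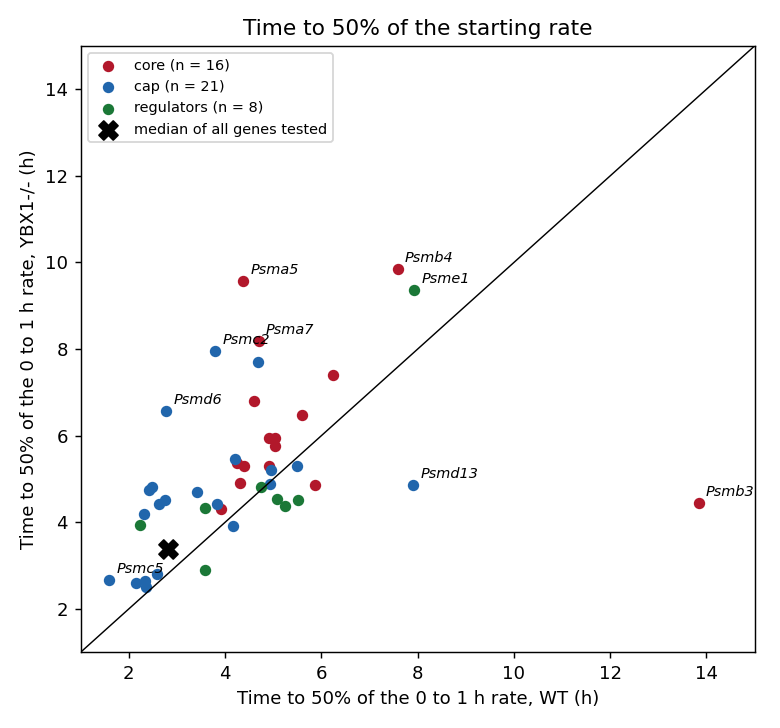
Time (h) at which the T-to-C rate first crossed 50% of its mean at 0 to 1 h, in WT (x axis) and YBX1-/- (y axis), 1 point per transcript of the core, the cap and the regulators, with the line of equal times and the median of all genes tested (cross). Of the 43 tested transcripts with both times, 33 lie above the line, and Psmb3 lies farthest below it at 13.8 h in WT and 4.44 h in YBX1-/-.

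Between genotypes, proteasome transcripts carried less label at the start in YBX1-/-, as most transcripts did. The mean rate at 0 to 1 h had a median of 44.9% over the 44 tested members in WT and 31.6% in YBX1-/-, and of 45.4% and 33.7% over all genes tested. In 30 of 44 members (68.2%) all 3 early rates in YBX1-/- lay below all 3 in WT, against 43.1% of all genes tested; the core had 13 of 16, the cap 12 of 20 and regulators 5 of 8. The time to 50% was longer in YBX1-/- in 33 of 43 members (14 of 16 core, 16 of 20 cap, 3 of 7 regulators), against 59.5% of the 7068 genes with both times, and the median difference was 0.89 h against 0.22 h. With the starting rate taken from 0.5 and 1 h alone, which drops the YBX1-/- 0 h library, 37 of 44 took longer, against 62.9% of all genes with both times, with median differences of 0.87 h and 0.31 h. Single times carry no error, since there was 1 library per point.

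On the centred log2 scale, the members' median difference between genotypes was largest at 6 h (0.61). There 38 of 44 members were higher in YBX1-/- than in WT, 16 of 16 in the core, 16 of 20 in the cap and 6 of 8 among regulators, against 55% of all genes tested. The median difference at 6 h was 0.85 for the core (from 0.14 to 2.17), 0.31 for the cap, 0.65 for regulators and 0.13 for all genes tested. At 3 h it was -0.07, 0.23, -0.42 and -0.02, and at 12 h -0.04, -0.13, 0.35 and 0.08. The 6 h difference is relative: uncentred, the core median was 15.4% in WT and 14.3% in YBX1-/-, while the median of all genes tested was 10.2% and 4.76%. Over all genes tested the quartiles at 6 h were 2.53% and 9.43% in YBX1-/- and 6.92% and 14.9% in WT, farther apart as a ratio in YBX1-/-. Neither 6 h library has a replicate, and the part of this spread in the result was not tested. Relative to each transcript's own start, the members' median rate at 3 h was 61.8% in WT and 81.3% in YBX1-/- (45.1% and 54.7% for all genes tested), and at 6 h it was 32.7% and 37.8% (22.8% and 14.7%).

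**Figure D5:**
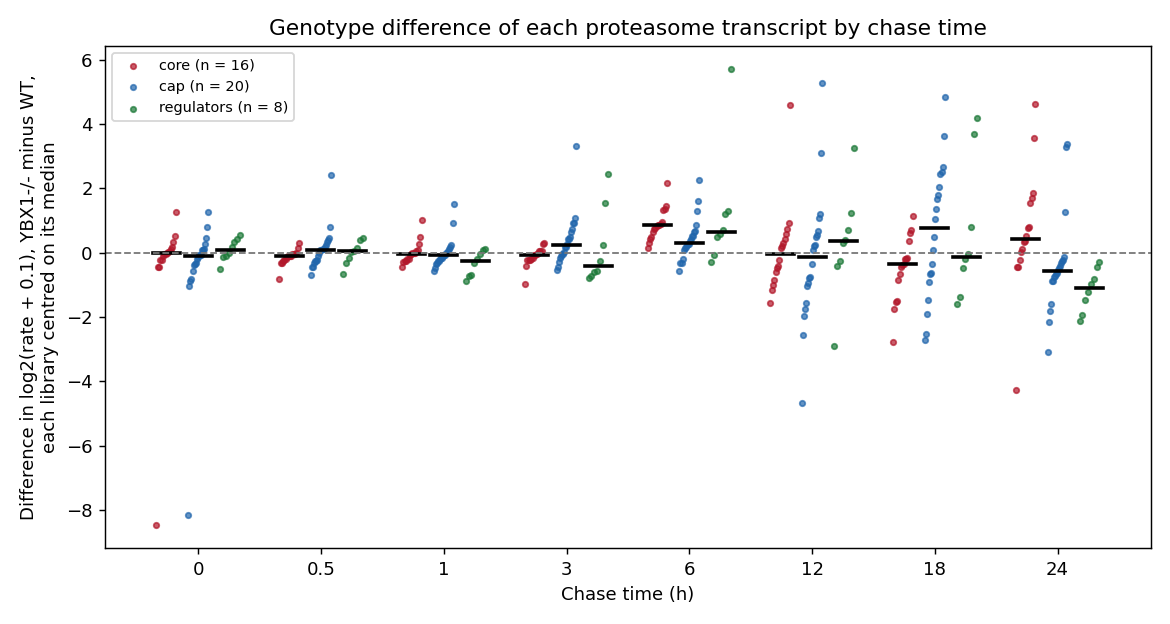
Difference in log2(rate + 0.1) between YBX1-/- and WT, each library centred on its median gene (dashed line at 0), for each tested transcript of the core, cap and regulators at each chase time (h); black bars are class medians. At 6 h all 16 core points lie above 0 with a median of 0.85, and the points spread widely from 12 h on.

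The limma fit over 0 to 6 h, in which a positive value is a slower loss of label in YBX1-/- (log2 per h), called no gene at an adjusted p below 0.05 (0% of 7411), although 1229 genes (16.6%) had an unadjusted p below 0.05. Of the 44 members, 14 had such an unadjusted p, all with positive values, and 36 were positive, against 55.8% of all genes tested. The median was 0.13 over members and 0.025 over all genes tested; it was 0.14 for the core, with 15 of 16 positive, 0.06 for the cap and 0.09 for regulators. Uncentred, the class medians were 0.048, -0.031 and -8.2e-05, so that the values above are relative to the typical gene. Without the YBX1-/- 0 h library the core median was 0.16 with 16 of 16 positive, 35 of 44 members were positive (54.2% of all genes tested), and 11 members had an unadjusted p below 0.05 (13.1% of all genes tested). Without the 6 h time point the core median was -0.018, the regulator median -0.13 and the cap median 0.16, so that the core and regulator values rest on the 6 h libraries. The smallest adjusted p among members, from limma with Benjamini-Hochberg adjustment, were 0.17 for Psmg3, 0.18 for Psmd3 and 0.18 for Psmd6.

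Psmg3 had the largest value over 0 to 6 h, 1.06 log2 per h (SE 0.20). Its rates were 45.5%, 52.9%, 63.6%, 4.27%, 0%, 0%, 0% and 2.27% in WT and 35.3%, 35.2%, 23.4%, 21.7%, 2.38%, 0%, 1.37% and 0.402% in YBX1-/-, so that the genotypes were far apart at 3 h and WT was listed at 0 at 6 h. Psmd3, a structural subunit of the lid, had 0.44 (SE 0.09): its rates were 43.2%, 44.4%, 39.7%, 14.9%, 4.35%, 0%, 0% and 5.41% in WT. In YBX1-/- Psmd3 had 22.6%, 39.4%, 19.6%, 19.3%, 9.94%, 0.595%, 0.617% and 0.490%, lower than WT at 0 to 1 h and higher at 3 and 6 h. Psmd6, another lid subunit, had 0.37 (SE 0.08), with 49.7%, 52.3%, 53.7%, 22.4%, 12.7%, 5.93%, 1.31% and 2.99% in WT. In YBX1-/- Psmd6 had 18.8%, 40.9%, 41.1%, 38.9%, 18.4%, 1.35%, 5.05% and 2.04%, with the same pattern. The values of Psmc2 (0.85, SE 0.54) and Psmb7 (0.83, SE 0.57), the highest of the cap and the core, come from the 0 listed at 0 h in YBX1-/-; without that library they were 0.19 and 0.14. The most negative value of each class was -0.14 (SE 0.33) for Psmc3ip in the cap, -0.09 (SE 0.11) for Psmb3 in the core and -0.04 (SE 0.06) for Psme3 among regulators, each smaller than its SE.

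Over the whole chase the decay rate difference called 8 of 7411 genes (0.108%) and no member. Adjusted p was at least 0.27 for each of the 44 by limma, and 3 of them, Psmd9, Psmc3ip and Psmf1, had an unadjusted p below 0.05, as did 929 of all genes tested (12.5%). The member median was -0.006 and that of all genes tested 0.004 log2 per h, with class medians of 0.0044 for the core, -0.008 for the cap and -0.030 for regulators. The largest positive values were 0.16 (SE 0.06) for Psmd9 and 0.16 (SE 0.07) for Psmb9, and the most negative -0.13 (SE 0.06) for Psmc3ip and -0.12 (SE 0.05) for Psmb10. Psme4 at 0.04 (SE 0.07) and Psmf1 at -0.06 (SE 0.03) were the extremes of the regulators. Psmd9 had 56.3%, 40%, 52.5%, 11.9%, 11%, 3.23%, 0% and 0% in WT and 52.9%, 37.9%, 30%, 17%, 5.80%, 1.46%, 3.16% and 0.843% in YBX1-/-, with WT listed at 0 at 18 and 24 h; over 0 to 12 h its difference was -0.08.

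The labelling level, the mean centred difference over the 8 times, called no gene either (0% of 7411; 415, or 5.6%, with an unadjusted p below 0.05 by limma). Of the members 26 were positive and 18 negative, with a median of 0.07 against 0.009 over all genes tested. The only member with an unadjusted p below 0.05 was Psme3, at -0.78 (SE 0.34, adjusted p 0.78), whose centred rate was lower in YBX1-/- at all 8 times. Its rates were 47.6%, 56.9%, 44%, 27.8%, 12%, 5.12%, 1.27% and 1.45% in WT. In YBX1-/- Psme3 had 34.1%, 33.8%, 29.1%, 15.4%, 4.55%, 0.468%, 0.425% and 1.07%, lower than in WT at each time also before centring. The other extremes, Psmd13 (1.10, SE 0.69), Psmb9 (1.11, SE 0.73), Psmg3 (1.12, SE 0.88), Psmd1 (-1.02, SE 0.57) and Psmb7 (-1.36, SE 0.98), each held a library listed at 0 in at least 1 genotype. Psmb7 was at -0.34 (SE 0.46) without the YBX1-/- 0 h library. Psmd13 had 34.7%, 26.1%, 22.7%, 14.5%, 20.4%, 0%, 2.90% and 0% in WT and Psmd1 35.7%, 34%, 32.7%, 29.4%, 9.80%, 0%, 0% and 1.21% in YBX1-/-.

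Loss of label itself passed the test in 42 of 44 members in each genotype, with the other 2 falling short. In WT, Psmc3ip (-0.11 log2 per h, adjusted p 0.088 by limma) and Psmg3 (-0.28, adjusted p 0.054) did not pass; in YBX1-/-, Psmb7 (-0.26, adjusted p 0.067) and Psmc2 (-0.07, adjusted p 0.50) did not, and both passed without the 0 h library. The share called among all genes tested was 95.2% in WT and 91.5% in YBX1-/-. The median slope was -0.25 log2 per h over members and -0.27 over all genes tested in WT, and -0.24 and -0.25 in YBX1-/-. The line over 24 h thus put members close to the typical transcript. It includes 18 and 24 h, where the medians of all genes tested were 1.14% and 0.848% in WT and 1.32% and 0.768% in YBX1-/-. The series holds no unlabelled library, so the background T-to-C rate is unknown. The part of background in these late rates was not tested. The time to 50%, which looks at the first hours, put all 16 tested core transcripts above the median of all genes in both genotypes. Most regulators lay above it too (6 of 8 in WT and 6 of 7 in YBX1-/-), as did 16 of 20 cap transcripts in YBX1-/-. Scatter around the level fit had a median SD of 0.68 on the log2 scale over members and 1.04 over all genes tested; it was 0.47 for the 22 members of higher coverage on Ts and 1.02 for the 22 of lower coverage.

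Psma8 was the member with the most unequal genotypes and could not be tested. It was listed at 0 in all 8 WT libraries, while in YBX1-/- its rates were 9.09%, 41.8%, 33.1%, 25%, 12%, 2.33%, 0% and 0%. An exact 0 can mean no reads or no converted reads, and its mean CPM of 2.23 is not given by genotype. Of the 12 other Psma8 intervals, 4 held a rate above 0 in WT, each in 1 library, at 100% and at a mean CPM of at most 0.695; all 12 held a rate above 0 in YBX1-/-. The same pattern, 0 in all 8 WT and above 0 in at least 6 YBX1-/- libraries, was held by 5 of 9628 genes with a mean CPM of at least 1 (0.0519%), and the reverse pattern by 5. The 5 genes with the pattern of Psma8 were Ak4, Cdc20, Cngb1, Eif2s3y and Psma8 itself. Eif2s3y is a gene of the Y chromosome, and whether the genotypes came from animals of different sex was not tested.

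Genes that work with the proteasome but lie outside the symbol rule gave no call between genotypes. Of 6 other 26S components 5 were tested, of 12 genes of the p97 unfoldase and ubiquitin shuttles 10, of 10 genes of proteasome assembly and control 8, of 6 genes of ubiquitin and its activating enzymes 5, and of 10 genes of peptide transport and loading 9. None passed an adjusted p of 0.05 in the decay or level comparison by limma. Label loss in WT was called in 5 of 5, 9 of 10, 8 of 8, 5 of 5 and 8 of 9 of them, each a fall, against 95.2% of all genes tested. All 5 of the other 26S components were positive over 0 to 6 h, with a median of 0.10, as were 55.8% of all genes tested. The largest of the 5, Ube3c (0.83, SE 0.61), was at 0.09 without the YBX1-/- 0 h library. The median was 0.03 for p97 and shuttles, 0.04 for peptide loading, 0.06 for ubiquitin genes and -0.03 for assembly and control. Usp14, a deubiquitinase of the cap, had 0.15 (SE 0.06), and Vcp, the p97 unfoldase itself, 0.13 (SE 0.05). Beside Tap1, described next, Uba6 (-0.49, SE 0.14), Zfand5 (-0.17, SE 0.05) and H2-D1 (0.13, SE 0.04) had smaller unadjusted p by limma. Tap1, which carries proteasome products into the endoplasmic reticulum and neighbours Psmb9 in the MHC region, had -0.36 (SE 0.07, adjusted p 0.18), the sign opposite to that of Psmb8 (0.24, SE 0.07) and Psmb9 (0.03, SE 0.12). Over the whole chase the smallest adjusted p of these lists was 0.19, for Akirin2 (0.11, SE 0.03), which in mammals brings proteasomes into the nucleus, followed by Ubqln4, a shuttle, at 0.20 (0.15, SE 0.05) and Uchl5, a deubiquitinase of the cap, at 0.22 (-0.12, SE 0.04).

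Members were also divided by GGACT in the interval. The 16 tested members with it had a median decay rate difference over 0 to 6 h of 0.08 log2 per h and a level difference of 0.08, and the 28 without it 0.14 and 0.05. Their times to 50% were 3.74 h in WT and 4.63 h in YBX1-/- with GGACT, and 4.38 and 5.30 h without. The groups also differed in interval length, with medians of 1098 and 182 bases, and the part of length in these values was not tested.

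Promoter windows around the start site were found in RefSeq (GRCm38.p6) for 39 of the 47 members, 41 promoters in all. The core of the antioxidant response element, TGACNNNGC on either strand, which the stress factors NRF1 and NRF2 bind at proteasome genes, was in 12.2% of member promoters and 12.4% of all 32851. CCAAT on either strand was in 34.1% and 37.4%. Counted by gene, 7 of 13 core, 6 of 18 cap and 1 of 8 regulator genes held it. The Y-box CTGATTGG on either strand, the DNA element for which the YBX family is named and which contains a reversed CCAAT, was in 7.32% and 4.10%. Its 3 member sites are shown with the motif, or its reverse, in capitals and 10 bases on each side, in the direction of the gene.
Psma2: tgactctcctCCAATCAGagcaaagaag
Psmb9: cgcgcagccgCTGATTGGaaagccgagc
Psmc3ip: tcttccttagCCAATCAGcgttaaggtc
They lie at chr13:14613178-14613205 (+), chr17:34187324-34187351 (-) and chr11:101095454-101095481 (-). An antioxidant response element core was found close to the start site of Psmb6, Psmd9 and Psme4 among others, and the Psmb6 and Psmd9 windows are shown in the same way.
Psmb6: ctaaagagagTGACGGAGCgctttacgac
Psmd9: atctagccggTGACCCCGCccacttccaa
They lie at chr11:70525338-70525366 (+) and chr5:123228149-123228177 (+). These matches are descriptions of the letters in the window, and no binding was measured.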

How the data were processed

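Label in RNA was measured by SLAM-seq in mouse leukemia cells of 2 genotypes at 8 chase times, 1 library each. The authors deposited the T-to-C rate of each interval and library as a fraction from 0 to 1, per the file headers; its denominator and the counting program were not given in the sources used here. Mean CPM and a coverage signal on Ts were deposited as the authors' means over all libraries, per the file headers, so depth per library is unknown and only the mean CPM and coverage stand behind each rate. CASAVA and HISAT2 2.1.0 are named in the submitters' processing notes, with the human build GRCh38. The identifiers are mouse, and the T content counted from GENCODE transcripts (GRCm38) equalled the deposited T content in all 21089 intervals that could be read, so GRCm38 coordinates are given.

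Rates were multiplied to percent and analysed as log2(rate + 0.1), which shrinks differences near 0. Genes with a rate above 0 in at least 12 of 16 libraries were tested (7411 genes) with limma 3.58.1 in R 4.3.3, with trend, two-sided, with Benjamini-Hochberg adjustment over all of them and a threshold of 0.05. Decay rate difference was the interaction of genotype and hours, and level difference the genotype term, both with time as a factor after the library median was subtracted; label loss was the slope over hours, fitted for each genotype without centring. The fit over 0 to 6 h used 10 libraries. The fits were tested on simulated data with normal scatter drawn for each gene. The simulated data held no exact 0 and no shift of a whole library, so they do not check the fits against these. Times to 50%, class medians and sequence features are descriptions. Per class and comparison, the largest value in each direction was named, beside the catalytic subunits and Psmd14 in every library; Psma1, Psma8, Psmb3, Psmb4, Psmc4, Psmc5, Psmd3, Psmd6, Psmd9 and Psme1 were shown in full after their values were seen. The members, lists and tests were chosen with earlier results of these data known. Protein sequences were not used here. Alternatives were other added values, filters, centring, time windows, intervals and each time point left out.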

Additional observations from a re-analysis of the deposited data

How the results depend on the processing

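No member passed the threshold in the decay, 0 to 6 h or level comparison under any alternative run, including each time point left out. Label loss was called in 30 to 44 members in WT and 30 to 45 in YBX1-/-. The number of members tested changed with the filter on rates, so these counts are not shares of the members tested in the main fit. In the main fit label loss was called in 95.2% of all genes tested in WT and 91.5% in YBX1-/-. Counts over all genes moved more. The decay rate difference called 8 genes, 1 with 0.01 or 0.5 percentage points added or without the filter on rates, 2 in longest intervals, 0 over 0 to 6 h or without the YBX1-/- 0 h library, 268 over 0 to 12 h, and 0 to 204 with each time point left out. Over 0 to 6 h it called 0 genes, 1 with 0.5 added, 5 where all 16 rates were above 0, and 0 to 275 with each time point left out (275 without 3 h). The level called 0 genes, 2 without the filter. Label loss called 2807 and 2810 genes, in WT and YBX1-/-, where only genes with all 16 rates above 0 were tested. Fewer genes were tested under that filter, so these counts cannot be set against those of the main fit. The cause of the other changes was not tested.

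Class medians of the decay rate difference were, uncentred, 0.012 for the cap and 0.025 for the core; over 0 to 12 h -0.028 for the cap, 0.027 for the core and 0.059 for regulators; over 0 to 6 h 0.064, 0.14 and 0.095. With each time point left out they ran from -0.034 to 0.030 (cap), -0.011 to 0.023 (core) and -0.044 to 0.024 (regulators). Over 0 to 6 h the cap median was 0.027 where all 16 rates were above 0, 0.089 without the filter, -0.031 uncentred and 0.088 in coverage-weighted means. There the core median was 0.048 uncentred, and the regulator median -0.0029 where all rates were above 0 and -8.2e-05 uncentred. With each time point left out these ran from 0.059 to 0.16 (cap), -0.018 to 0.16 (core) and -0.13 to 0.12 (regulators). The slower loss relative to the typical gene over 0 to 6 h thus shrinks or turns negative uncentred.

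Single members turned their sign without passing the threshold in either setting: for decay, Psmd9 to -0.077 and Psmb10 to 0.093 over 0 to 12 h, Psmb10 to 0.12 and Psmf1 to 0.023 over 0 to 6 h, Psmb10 to 0.016 without 24 h and Psme4 to -0.036 without 18 h; over 0 to 6 h, Psmc3ip to 0.60 without 6 h and Psmb3 to 0.028 without 0 h or the YBX1-/- 0 h library; for the level, Psmd1 to 0.019 and Psmb9 to -0.025 over 0 to 6 h. With each time point left out, the ranges were -0.15 to 0.016 (Psmb10) and -0.036 to 0.22 (Psme4) for decay, and -0.26 to 0.60 (Psmc3ip) and -0.32 to 0.028 (Psmb3) over 0 to 6 h. Median times to 50% moved by less than the spread between members with another starting rate or interval. Depth per library is unknown, so rates of members at low CPM, and exact 0 values, cannot be given an interval.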
